A study of Mus musculus with 45 samples.

Results

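The genes described here were 10 genes of iron handling, chosen by symbol from the 24918 gene entries of an RNA-seq count table of mouse colonic epithelium. They were transferrin (Trf), the transferrin receptor (Tfrc), the iron importer DMT1 (Slc11a2), the exporter ferroportin (Slc40a1), the ferritin heavy and light chains (Fth1, Ftl1), a duodenal ferric reductase (Cybrd1), the ferroxidase hephaestin (Heph), heme oxygenase 1 (Hmox1) and iron regulatory protein 2 (Ireb2). The set was assembled around Trf because of its difference between formerly obese and obese mice. Trf values are therefore given as a description with no test, and the same holds for all 10 genes in that comparison. The other 9 genes were compared with control mice.

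All mice were male, of the strain labelled C57BL/6 and named C57BL/6J in the methods, and 6 weeks old when the diets began. Control mice ate a 10% fat diet for 20 weeks. Obese mice ate a 60% fat diet for 20 weeks, and formerly obese mice had 15 weeks of the 60% diet and a final 5 weeks of the 10% diet. Epithelium was released with EDTA from the whole colon, and 5 mice per group were sequenced, with one library each. Libraries held 15230391 to 22762095 counts, the deepest being formerly obese replicate 3. The labels name no sequencing batch and do not say whether mice shared a cage or litter. The 8 markers of colonic epithelium were present in every library, with a summed level of 17238 to 25758 CPM, that is counts relative to the scaled size of the library. Fibroblast markers summed to between 2.34 and 30.7 CPM. The 5 adipocyte markers summed to 4.16, 5.73 and 7.76 CPM on average in control, obese and formerly obese mice. Nearly all of this was Cidec, which was called higher in formerly obese against control mice (log2 fold change 0.93), while Lep and Plin1 were at 0 throughout and Adipoq had at most 2 counts. Since these are bulk samples, fewer cells of a type and less RNA per cell cannot be told apart.

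Epithelial cells take up iron bound to transferrin through the transferrin receptor, and ferrous iron through DMT1. Iron that is not used is stored inside the ferritin shell or leaves the cell through ferroportin, and hephaestin oxidizes it on the way out. Iron regulatory proteins bind a hairpin in messenger RNAs, the iron-responsive element. In a 5′ untranslated region (UTR) this binding blocks translation, and in the 3′ UTR of the transferrin receptor it protects the messenger from decay.

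The iron-responsive elements are shown because they are what several of these transcripts share in sequence. RefSeq transcripts (GRCm38.p6, the sequence of mm10) were searched on the transcript strand for a C, 5 bases, the loop CAGTGN and 5 bases able to pair with the 5 before the loop. The longest transcript of each gene was searched, and 260 of 21000 transcripts (1.24%) held a match. Matches were found in 4 of the 10 genes. The 25 bases are printed 5′ to 3′ with the loop in capitals.
Fth1, 5′ UTR, chr19:9982734-9982758, plus strand: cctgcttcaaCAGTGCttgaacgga
Ftl1, 5′ UTR, chr7:45459781-45459805, minus strand: cttgcttcaaCAGTGTttgaacgga
Slc40a1, 5′ UTR, chr1:45925467-45925491, minus strand: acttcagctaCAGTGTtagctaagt
Tfrc, 3′ UTR, chr16:32631221-32631245, plus strand: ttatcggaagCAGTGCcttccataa
Tfrc, 3′ UTR, chr16:32631600-32631624, plus strand: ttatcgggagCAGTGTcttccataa
Tfrc, 3′ UTR, chr16:32631665-32631689, plus strand: atatcggagaCAGTGAtctccatat
Tfrc, 3′ UTR, chr16:32631712-32631736, plus strand: ttatcgggaaCAGTGTttcccataa
Fth1, Ftl1 and Slc40a1 each held 1 match, all in the 5′ UTR, whereas Tfrc held 4, all in the 3′ UTR. No match was found in the searched transcripts of the other 6 genes. The search required 5 unbroken pairs and read only the longest transcript of each gene. Elements of another shape, or in other transcripts, would be missed, so a gene without a match may still have one.

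**Figure D1:**
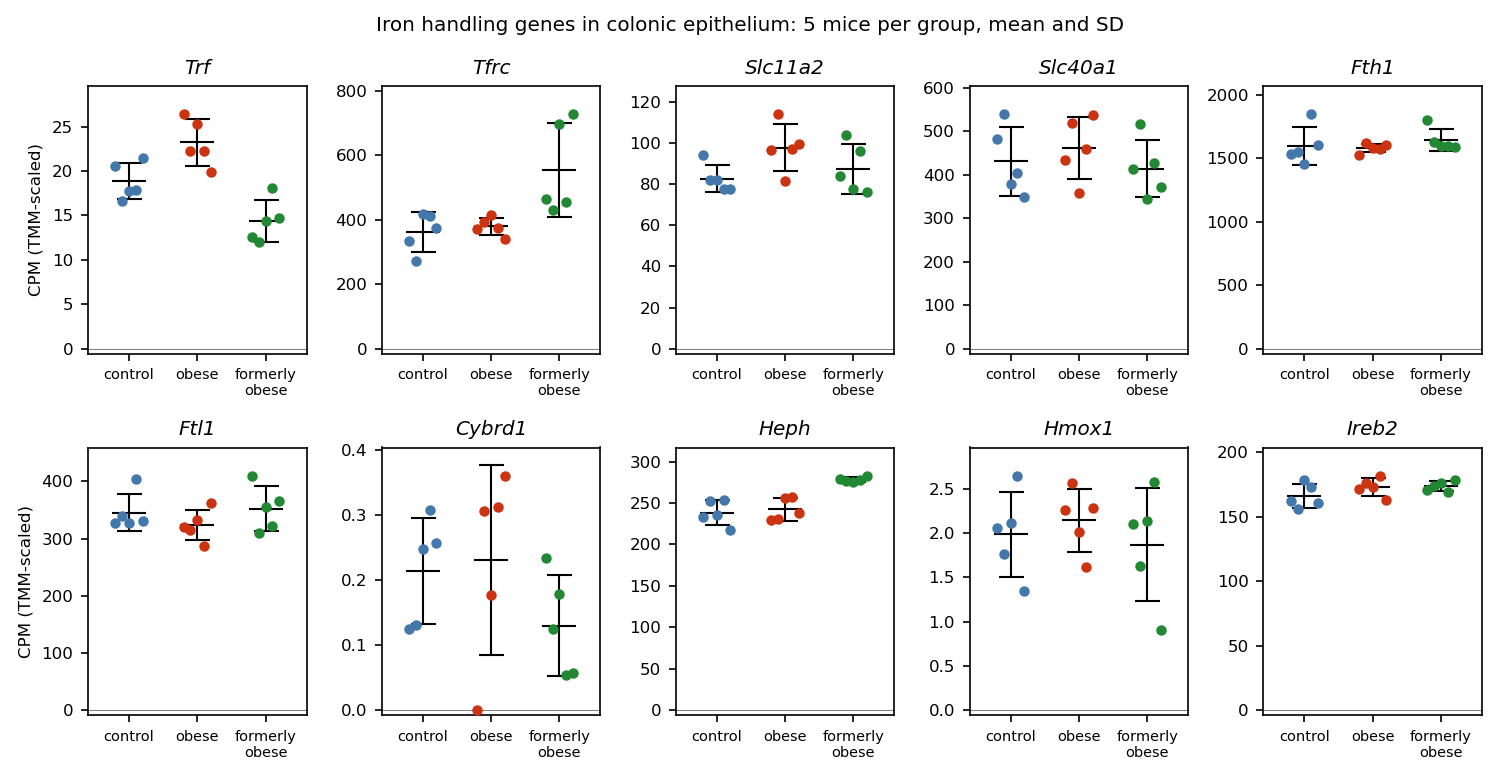
CPM of the 10 genes (y axes, linear, from 0) in control, obese and formerly obese mice (x axes). Each point is 1 mouse and the black marks are the mean and SD of 5 mice. Formerly obese mice lay at 12 to 18.1 CPM for Trf, 430.0 to 728 for Tfrc and 275 to 283 for Heph.

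Per kilobase of exon, the mean level over the 15 libraries spanned the set from Fth1 at 1063 CPM per kb to Cybrd1 at 0.0368. Ftl1 followed at 351, Slc40a1 at 125, Tfrc at 84 and Heph at 42.6. Lower levels were measured for Ireb2 at 20.2, Slc11a2 at 13.6, Trf at 8.07 and Hmox1 at 1.27 CPM per kb. Ferritin transcripts were thus the most abundant of the set and the ferric reductase the least. Exon length was that of all RefSeq exons of a gene merged, which can exceed the length of a single transcript.

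Trf encodes the plasma carrier of ferric iron, made mainly by the liver. The gene lies at chr9:103208876-103230286 on the minus strand. In control mice Trf measured 20.6, 16.6, 17.8, 17.9 and 21.5 CPM. In obese mice it measured 26.4, 22.2, 25.3, 22.3 and 19.9 CPM. In formerly obese mice it measured 12.6, 12, 14.4, 18.1 and 14.7 CPM. Obese mice were the highest and formerly obese mice the lowest, without overlap between these groups, while the control range met both. The group means were 18.9 ± 2.08, 23.2 ± 2.63 and 14.4 ± 2.4 CPM (SD, n = 5). The fitted log2 fold change was 0.30 ± 0.11 (SE) in obese against control mice, -0.39 ± 0.11 in formerly obese against control mice and -0.69 ± 0.11 in formerly obese against obese mice. Leaving out any single library gave -0.79 to -0.63 for the last of these. This range is a description only, because Trf was chosen by that same difference.

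Other plasma protein transcripts were at low levels. A list of 6 hepatocyte or plasma protein genes, 3 of which passed the filter on low counts, summed to 42.3 to 54.5 CPM for control, 40.4 to 45.7 for obese and 34.1 to 40.9 for formerly obese mice. Most of this was Ttr, at 41.4, 40.1 and 34.4 CPM, whereas Alb, the albumin gene, averaged 3.89, 1.62 and 1.19 CPM. Like Trf, the list sum was lowest in formerly obese mice. Alb and Ttr were called lower there than in control mice (log2 fold changes -1.71 and -0.27), beside 1.87% of all genes called lower. Apoa2, the other tested gene, was at 0.15 in that comparison and was not called. In obese against control mice Alb was at -1.26, Ttr at -0.05 and Apoa2 at 0.36, and none of these was called. Alb ranged from 10 to 160 counts per library, and whether its differences rest on a single library was not tested. The part of this list in the Trf values was not tested.

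A differentially methylated region (DMR) between obese and control mice lay within Trf. It is printed because it was the only DMR inside the body of any of the 10 genes. Bases are on the strand of the gene, with CpGs in capitals.
Trf, chr9:103226934-103226959, minus strand: CGctctcttctaggcaagtgaagcCG
The 26 bases hold 2 CpGs and span the boundary into exon 3 of 17, with 13 bases in the intron and 13 in the coding part of the exon. The region was listed with lower methylation in obese mice. The list gives no methylation value per mouse and no formerly obese mice. Whether methylation there and the Trf level vary together among mice was not tested.

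**Figure D2:**
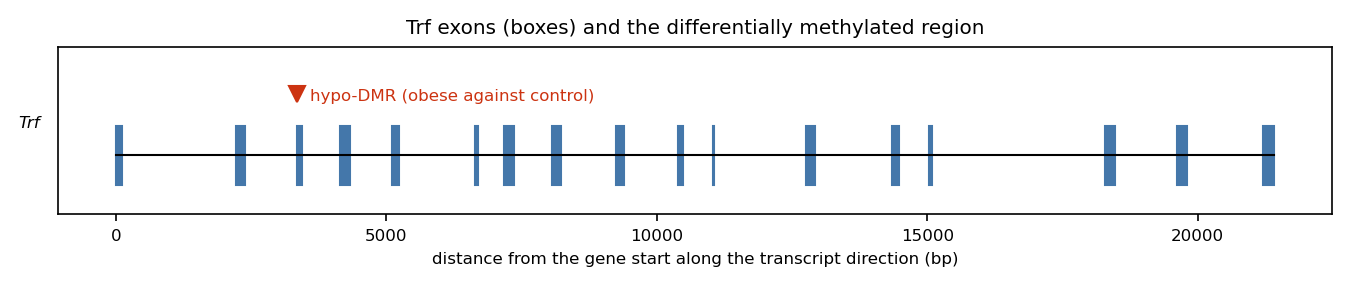
Exons of Trf (blue boxes) along the transcript direction, in bp from the gene start (x axis), with the DMR of obese against control mice (red triangle). The region runs from 3327 to 3352 bp and crosses the start of exon 3 of 17, at 3340 bp.

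Tfrc encodes the receptor that brings transferrin into the cell and lies at chr16:32608896-32632794. In control mice Tfrc measured 335, 271, 419, 412 and 376 CPM. In obese mice it measured 372, 394, 415, 375 and 342 CPM. In formerly obese mice it measured 464, 430.0, 699, 454 and 728 CPM. All formerly obese mice lay above all control and obese mice, but replicates 3 and 5 stood well above the other 3. Tfrc rose 1.53-fold in formerly obese against control mice, from 363 ± 61.3 to 555 ± 146 CPM (SD, n = 5), with a log2 fold change of 0.61 ± 0.14 (SE, 95% interval 0.31 to 0.92, edgeR adjusted p = 0.0356). Without any single library the fold change was 0.50 to 0.69 on the log2 scale and Tfrc was still called. The call rested on those high libraries together. Without formerly obese replicates 3 and 5, a choice made after their Tfrc values were seen, the log2 fold change was 0.31 and the adjusted p 0.17 with edgeR. Obese and control mice had overlapping Tfrc levels, with a log2 fold change of 0.07 ± 0.14 (95% interval -0.24 to 0.37, edgeR adjusted p = 0.917). Against obese mice, the formerly obese difference was 0.55 ± 0.14 on the log2 scale.

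Slc11a2 encodes DMT1, the importer of ferrous iron. In control mice it measured 94.1, 82.1, 82, 77.7 and 77.6 CPM. In obese mice it measured 96.5, 114, 81.7, 97.1 and 99.3 CPM, and in formerly obese mice 83.8, 104, 77.6, 95.9 and 76.1 CPM. The obese mean was the highest, but replicate 3 lay within the control range. In obese against control mice the log2 fold change was 0.24 ± 0.09 (SE, 95% interval 0.05 to 0.43), which did not pass (edgeR adjusted p = 0.344). In formerly obese against control mice it was 0.08 ± 0.09, with an edgeR adjusted p of 0.704. Cybrd1, which reduces ferric iron for DMT1 in the duodenum, was close to absent at this depth. Its counts per library were 0 to 6, with 17 summed over control, 19 over obese and 12 over formerly obese mice, and it failed the filter on low counts.

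Slc40a1 encodes ferroportin, the exporter of cellular iron. The mean level of control mice was 431 ± 78.4 CPM (SD, n = 5). Obese mice averaged 461 ± 72.2 and formerly obese mice 414 ± 65.8 CPM, and the 3 groups overlapped widely. The log2 fold changes against control were 0.10 (95% interval -0.17 to 0.37) for obese and -0.06 (-0.33 to 0.22) for formerly obese mice, with edgeR adjusted p of 0.839 and 0.866. Individual mice ranged from 343 to 539 CPM. Macrophages also use ferroportin, and the 7 macrophage markers, mostly Cd14, summed to 42.2 to 48.3 CPM for control, 47.9 to 54.4 for obese and 42.3 to 49.9 for formerly obese mice. Cd14 alone averaged 39.8, 44.7 and 39.5 CPM in that order and was not called. Emr1, Cd163 and Vsig4 had at most 5, 3 and 2 counts in any library.

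Heph, the ferroxidase that works with ferroportin, is X-linked, at chrX:96455436-96574484. In control mice Heph measured 233, 252, 235, 254 and 218 CPM. In obese mice it measured 229, 231, 256, 257 and 238 CPM. In formerly obese mice it measured 279, 277, 275, 278 and 283 CPM. The formerly obese mice were tightly grouped above every mouse of the other groups. In formerly obese against control mice Heph was 1.17-fold higher, with a log2 fold change of 0.22 ± 0.05 (SE, 95% interval 0.12 to 0.32, edgeR adjusted p = 0.026). This is below the 1.2-fold cutoff, so Heph was not called, although its adjusted p was smaller than that of Tfrc. In obese against control mice the log2 fold change was 0.02 ± 0.05 (edgeR adjusted p = 0.906), and in formerly obese against obese mice the difference was 0.20 ± 0.05. Heph overlaps Hsf3 on the opposite strand and the pseudogenes Gm14935 and Rpl17-ps8, and the strand setting of the counting was not given.

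The ferritin chains form the shell in which cells store iron. Control mice averaged 1599 ± 149 CPM of Fth1 (SD, n = 5), obese mice 1579 ± 33.5 and formerly obese mice 1643 ± 89.1. Ftl1 averaged 346 ± 33.1, 324 ± 26.9 and 353 ± 39.4 CPM in the same order. No difference in either chain passed the test. The Fth1 log2 fold change was -0.02 (95% interval -0.14 to 0.11) for obese and 0.04 (-0.08 to 0.16) for formerly obese mice, with edgeR adjusted p of 0.951 and 0.783. For Ftl1 the values were -0.09 (-0.26 to 0.07) and 0.03 (-0.14 to 0.20), with edgeR adjusted p of 0.712 and 0.895. Per kilobase of exon, the ratio of Fth1 to Ftl1 within a library was 2.97 ± 0.101 for control, 3.15 ± 0.254 for obese and 3.01 ± 0.251 for formerly obese mice. The ratio did not differ detectably from control in either group (exact permutation test, two-sided, p = 0.206 and 0.77, or 0.413 and 0.77 after Benjamini-Hochberg adjustment over these 2 comparisons). The ratio also depends on the exon lengths, which were 1511 bases for Fth1 and 970 for Ftl1 with all RefSeq exons merged. The searched transcripts had 942 and 970 bases. Ferritin genes have processed pseudogene copies, so these counts depend on how the authors treated shared reads.

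Hmox1 encodes the inducible enzyme that frees iron from heme. It was low, at 0.905 to 2.65 CPM, with log2 fold changes against control of 0.11 (95% interval -0.39 to 0.62) for obese and -0.08 (-0.59 to 0.42) for formerly obese mice. At this depth the intervals are wide, and the edgeR adjusted p were 0.914 and 0.9. Ireb2, which binds iron-responsive elements when iron is low, averaged 166 ± 9.5, 173 ± 7.13 and 174 ± 4.17 CPM in control, obese and formerly obese mice (SD, n = 5). Its log2 fold changes against control were 0.06 (-0.03 to 0.15) and 0.07 (-0.03 to 0.16), with edgeR adjusted p of 0.646 and 0.477.

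**Figure D3:**
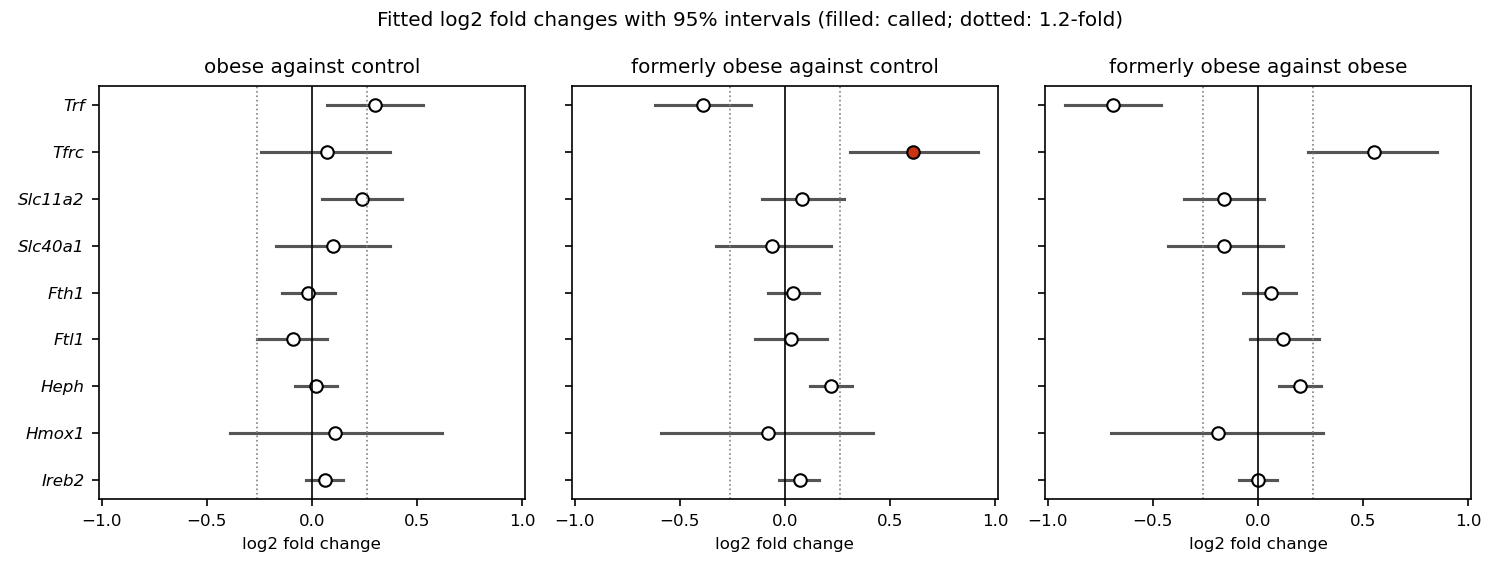
Fitted log2 fold change (x axes) of the 9 genes that passed the filter on low counts, with 95% intervals, in each comparison. Dotted lines mark 1.2-fold, and the filled point is Tfrc in formerly obese against control mice, at 0.61, the only call among the tested values; Trf, and all genes in the right panel, were not tested.

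A gene was called at over 1.2-fold in either direction with a p under 0.01 and an adjusted p under 0.25. Besides Trf, 8 genes passed the filter on low counts. In obese against control mice 0 of these 8 were called with edgeR, 1 had an unadjusted p under 0.05 (Slc11a2), and DESeq2 also called 0. Of all 12961 genes tested, 1.58% were called and 10.9% had an unadjusted p under 0.05. Called genes were higher in 0.718% and lower in 0.864% of all genes. None of the 10 genes separated obese from control mice without overlap, which 2.47% of all genes did. In formerly obese against control mice 1 of the 8 was called (Tfrc, higher), beside 3.72% of all genes, or 1.85% higher and 1.87% lower. Tfrc and Heph also had an adjusted p under 0.05, beside 2.18% of all genes. There, Tfrc and Heph did not overlap between the groups, as did 3.62% of all genes. Tfrc and Heph, like Trf by which the set was chosen, did not overlap between formerly obese and obese mice. Across all genes 3.38% did not, and nothing is read from this count. The median log2 fold change of the 8 was 0.06, 0.05 and 0.03 in the 3 comparisons, beside 0.00, -0.00 and 0.00 for all genes. The 2 comparisons with control share the control libraries, and both comparisons with formerly obese mice share those libraries.

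Summed levels of some marker lists also moved with the groups. The posterior Hox list, 7 genes of distal identity, summed to 462 to 574 CPM for control, 402 to 525 for obese and 333 to 434 for formerly obese mice, so formerly obese mice lay below control mice without overlap. Most of this sum was Hoxb13, at 353, 319.6 and 275 CPM on average. Hoxa10, Hoxb13, Hoxd10, Hoxd11 and Hoxd13 were called lower in formerly obese against control mice, beside 1.87% of all genes. Hoxa11 and Hoxd12 were not called there. A list of 8 small intestine or proximal colon genes, 5 of them tested, summed to 932 to 1304, 1092 to 1383 and 1269 to 1563 CPM. Most of this was Mep1a, at 601, 676 and 729.6 CPM on average, and Fabp2, at 372, 402 and 563 CPM. Sis, Alpi, Fabp2 and Mep1a were called higher in formerly obese against control mice, beside 1.85% of all genes, and Fabp6 was not called there. In obese against control mice, Alpi and Fabp6 were called higher (log2 fold changes 0.65 and 1.36) and Hoxd12 lower (-0.76). Of all genes, 0.718% were called higher and 0.864% lower in that comparison. The other tested genes of the Hox and small intestine lists were not called there. The 8 epithelial markers summed to 19378, 20094 and 23197 CPM on average, and Car1, which was not called, made up most of the difference at 4103, 4634 and 7129 CPM. Krt20 and Slc26a3 were called higher in formerly obese against control mice (log2 fold changes 0.55 and 0.41). Epcam, Cdh1, Krt8 and Krt19 were between -0.02 and 0.01 in the same comparison. The part of these shifts, or of the fibroblast and T and B cell markers, in the Trf, Tfrc and Heph values was not tested.

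**Figure D4:**
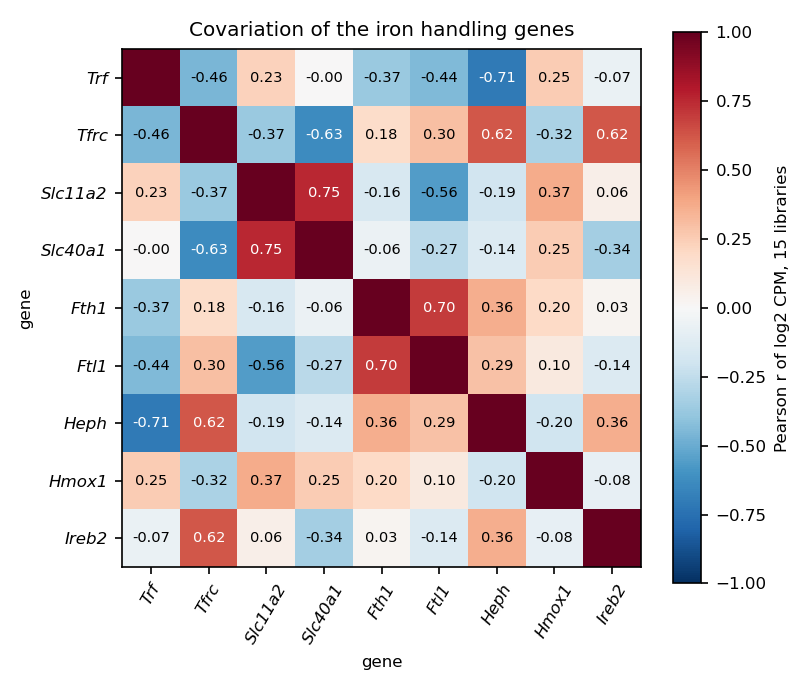
Pearson correlation of log2 CPM between the 9 genes that passed the filter (both axes) over 15 libraries, from -1 (blue) to 1 (red). Slc11a2 and Slc40a1 had the highest value at 0.75, and Trf and Heph the lowest at -0.71.

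Some of the genes varied together from mouse to mouse. These correlations describe 15 libraries that share scaling and group differences. Slc11a2 and Slc40a1, the importer and the exporter, had the highest Pearson r at 0.75, and 0.78 after the group means were removed. Tfrc and Slc40a1 ran in opposite directions, with r = -0.63 overall and -0.76 within groups. Tfrc and Ireb2 gave 0.62 overall and 0.66 within groups. By contrast, Tfrc and Heph gave 0.62 overall but -0.02 within groups, and Trf and Heph -0.71 overall but -0.30 within groups, so the shared pattern of these pairs was mainly one between groups. Fth1 and Ftl1 gave a Pearson r of 0.70, but a Spearman rho of only 0.34.

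Among 11035 genes with a mean of at least 50 counts, those most like Trf over the 15 libraries were Fuk (r = 0.87), Mrps10 (0.86), Bola1 (0.85), Papd7 (0.85) and Ppp1r35 (0.83). The most opposite were Snx13 and Tmem220, both at -0.88. This order depended on the measure. Only 2 of the 5 genes were also in the highest 5 by Spearman correlation, and 0 were once the group means were removed.

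**Figure D5:**
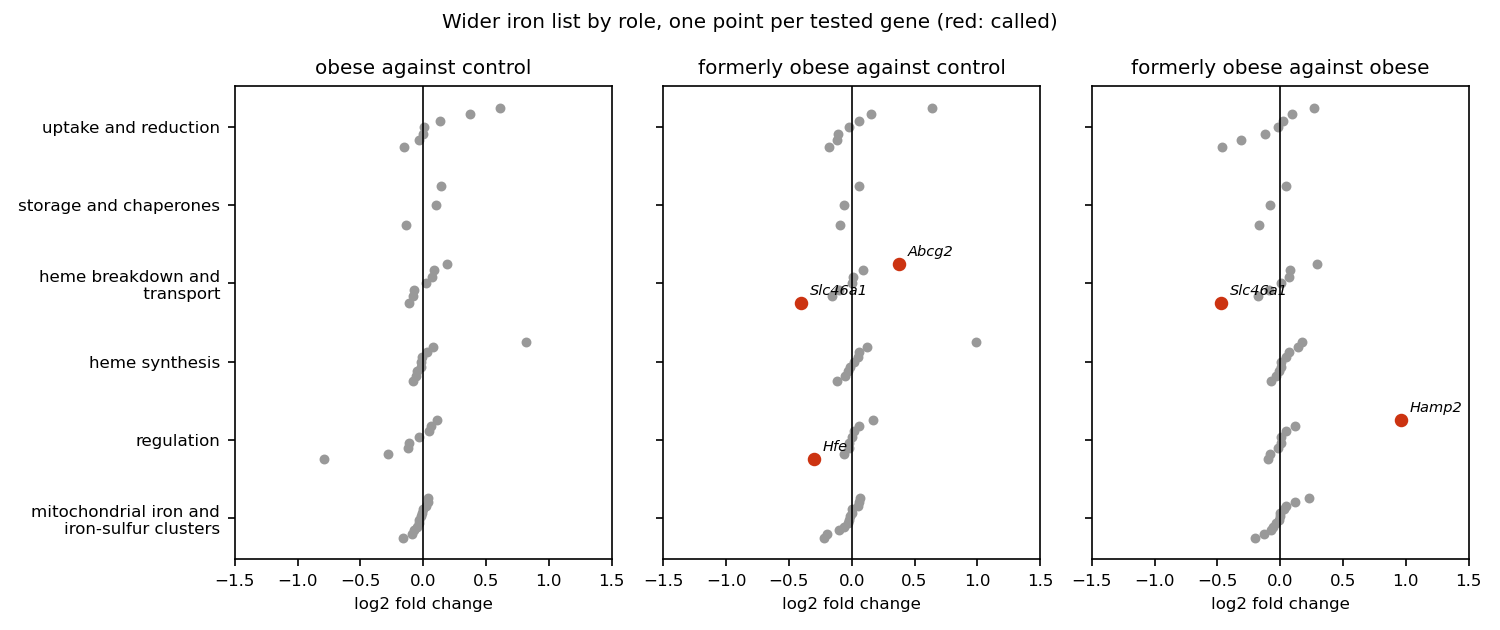
Fitted log2 fold change (x axes) of the 46 tested genes of the wider iron list, 1 point per gene, grouped by role (y axis) in each comparison. Red points were called, namely Abcg2, Slc46a1 and Hfe in formerly obese against control mice and Slc46a1 and Hamp2 in formerly obese against obese mice.

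The wider list of iron and heme genes had 58 symbols in the table, 46 of which passed the filter on low counts. In obese against control mice 0 of the 46 were called with edgeR and 0 with DESeq2, while 6 had an unadjusted p under 0.05. The smallest p was that of Hfe, a regulator of hepcidin, at 15 ± 1.82 CPM in control and 12.4 ± 1.56 in obese mice (log2 fold change -0.28, edgeR adjusted p = 0.319). Pcbp2, an iron chaperone, followed at -0.14 and Nfe2l2, a transcription factor of the oxidative stress response, at -0.11, with edgeR adjusted p of 0.375 and 0.398.

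In formerly obese against control mice 3 of the 46 were called, 1 higher and 2 lower, beside 3.72% of all genes. Slc46a1, a carrier of folate and heme, measured 48.6, 55.1, 38.4, 41.2 and 39.8 CPM in control and 35.4, 36.6, 30.9, 36.8 and 29.3 CPM in formerly obese mice, without overlap. Its log2 fold change was -0.40 ± 0.11 (SE, edgeR adjusted p = 0.0615). Abcg2, an efflux transporter that accepts porphyrins, rose from 113 ± 23.1 to 146 ± 15.4 CPM (SD, n = 5, log2 fold change 0.38, edgeR adjusted p = 0.097). Hfe fell from 15 ± 1.82 to 12.2 ± 0.999 CPM (log2 fold change -0.30, edgeR adjusted p = 0.126). The calls of Abcg2 and Hfe were near the p cutoff of 0.01 (edgeR unadjusted p = 0.00425 and 0.00778). Each was lost when any one of several libraries was left out. Abcg2 was no longer called without control replicate 1, 2 or 3 or formerly obese replicate 1, 3 or 5. Hfe was no longer called without control replicate 1, 2 or 4, obese replicate 5 or formerly obese replicate 1, 2, 3 or 4. Slc46a1 was called whichever single library was left out. Slc25a28, the mitochondrial iron importer mitoferrin 2, was at -0.22 and was not called (edgeR adjusted p = 0.0982). Without formerly obese replicates 3 and 5 together, 0 of the 46 were called.

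In formerly obese against obese mice 2 of the 46 were called, 1 higher and 1 lower, beside 2.65% of all genes, or 1.23% higher and 1.42% lower. With edgeR, 0 of the 46 had an adjusted p under 0.05 and 9 an unadjusted p under 0.05, beside 0.193% and 13.4% of all genes. Slc46a1 fell from 46.9 ± 6.09 to 33.8 ± 3.45 CPM (SD, n = 5, log2 fold change -0.47, edgeR adjusted p = 0.0623). Hamp2, a hepcidin family gene, rose from 0.355 ± 0.148 to 0.697 ± 0.0895 CPM (log2 fold change 0.96, edgeR adjusted p = 0.197), but on only 3 to 9 counts per obese and 9 to 16 per formerly obese library. Hamp2 was called in none of the 8 alternatives other than those that left out chosen libraries. Some of these could not call it. The minimum of 10 counts in every library removes Hamp2, and its adjusted p is above the 0.05 cutoff. Pcbp1, also an iron chaperone, and Slc25a28 were at -0.17 and -0.20 and were not called (edgeR adjusted p = 0.145 and 0.186).

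By role, calls among the 7 tested genes of heme breakdown and transport were 0, 2 (Slc46a1 and Abcg2) and 1 (Slc46a1) in the 3 comparisons. Among the 8 tested regulators they were 0, 1 (Hfe) and 1 (Hamp2). Of all genes, 1.58%, 3.72% and 2.65% were called in the same order. Differences between roles were not tested. Of 7 tested uptake and reduction genes, 3 storage and chaperone genes, 9 heme synthesis genes and 12 genes of mitochondrial iron and iron-sulfur clusters, 0 were called in any of the 3 comparisons with edgeR or DESeq2. At an unadjusted p under 0.05 these roles gave 1 uptake gene in each comparison, and 1, 0 and 1 storage genes. Heme synthesis gave 0, 1 and 0, the mitochondrial genes 0, 2 and 1, heme breakdown and transport 1, 2 and 3, and the regulators 3, 1 and 3. Over the 46 genes these were 6, 7 and 9, beside 10.9%, 16.7% and 13.4% of all genes. Both listed genes of export and oxidation, Cp and Hephl1, failed the filter on low counts. The median log2 fold change of the 46 genes was -0.02, -0.01 and 0.00 in the 3 comparisons.

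Beyond Trf, DMRs of obese against control mice lay within 50 kb of Slc11a2 and Ftl1. In all, 3 of the 10 genes (30%) and 23 of the 58 listed iron genes (39.7%) had a DMR within this distance, beside 39.9% of all gene entries. The regions near Slc11a2 and Ftl1 are printed to show their small size and CpG content, on the strand of the gene named, with CpGs in capitals.
Slc11a2, chr15:100432551-100432582, minus strand: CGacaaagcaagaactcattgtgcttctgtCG
Slc11a2, chr15:100452407-100452424, minus strand: CGgtttccacttctccCG
Ftl1, chr7:45420664-45420693, minus strand: CGctgaacccccagattgctggagtaaaCG
Both regions near Slc11a2 had lower methylation in obese mice. The nearer lay 9496 bp away between genes, and the other 29352 bp away in an intron of 5330439K02Rik. The region near Ftl1 had higher methylation in obese mice and lay 37251 bp away, in an exon of Lhb. Each holds 2 CpGs.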

How the data were processed

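RNA-seq was made from colonic epithelium of 15 mice, 5 per group. For each library the authors deposited raw counts per gene. Per the labels, the submitters' processing notes name cutadapt, TopHat2 2.0.4, HTSeq and mm10. The strand setting, the annotation release and the treatment of multiply mapped reads were not given in the sources used here. The authors also deposited DMR positions with a direction, bisulfite amplicon values, and DESeq2 tables of fold changes and p-values, the last 2 of which were not used.

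Counts were fitted in R 4.3.3 with edgeR 4.0.16 (filterByExpr, TMM scaling, quasi-likelihood test, all 15 libraries, group as the only term). Of 24918 entries 12961 were tested, and p-values were adjusted by Benjamini-Hochberg over all of them. The cutoffs followed the methods of the study. CPM were computed on TMM-scaled library sizes, with a prior count of 2 before the log2. Intervals use the degrees of freedom of the fit. On simulated data for obese against control mice with 12893 genes, 166 of 200 changed genes were called (83%), with 42 false calls among 208. The 83% is over all 200 genes and is not split by the size of the difference. Recovery of differences as small as those of the uncalled iron handling genes was not tested.

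The members and lists were chosen with earlier results of these data known. All 10 genes are named, as are listed iron genes called in any comparison, the 3 with the smallest p in each, and the 5 most and 2 least like Trf. Replicates are separate mice by label. A chi-square test of counts, divided by its degrees of freedom, gave 5.72 to 20.7 for pairs within a group, far above sampling noise. Alternatives were other scaling, DESeq2 1.42.0, filters, cutoffs, a replicate block, removal of GC trends and leaving out libraries.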

Additional observations from a re-analysis of the deposited data

Results flagged for a closer look

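In 3 of 30 groups of 5 mice, 1 mouse lay far from the other 4, where chance gives about 1 in 20 groups. Slc11a2 was at 94.1 CPM in control replicate 1, with the others at 77.6 to 82.1 CPM. Fth1 was at 1800.3 CPM in formerly obese replicate 1, with the others at 1591 to 1624 CPM. Ftl1 was at 404 CPM in control replicate 4, with the others at 327 to 339 CPM.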

How the results depend on the processing

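Many of the members' fold changes could hardly move under the alternatives, since leaving out a library outside the comparison barely alters them. Only Tfrc was called, so only its call could reverse. Of 621 values of the members' fold changes under the alternatives, 619 stayed on the same side of the threshold or within the replicate spread. In all, 0 reversed a call, although 24 values that were small or untested changed sign. The exceptions were Tfrc without formerly obese replicates 3 and 5, chosen after seeing the data: 0.31 on the log2 scale against control (adjusted p = 0.17 with edgeR) and 0.24 against obese mice. In that setting 0 members and 0 iron list genes were called against control, and 71 of all genes and 0 of the iron list in formerly obese against obese mice. With an adjusted p under 0.05 and no fold cutoff, calls among all genes were 16, 282 and 25 in the 3 comparisons, 2 members (Heph and Tfrc) were called in formerly obese against control mice, and 0 iron list genes in both comparisons with formerly obese mice. Leaving out 1 library each gave 40 to 331, 362 to 660 and 167 to 400 calls among all genes, and 0 to 1, 1 to 4 and 1 to 3 in the iron list. The lowest were without obese replicate 3, control replicate 2 and formerly obese replicate 5. Hfe was called in obese mice without control replicate 3 or obese replicate 2. In formerly obese against obese mice, 1 iron list gene (Slc46a1) was called under upper-quartile scaling, DESeq2, no filter, at least 10 counts in every library, the replicate block and GC trend removal, whereas fitting only the 2 groups compared gave 3 (Abcg2, Slc46a1 and Steap1). The cause of these changes was not tested. For DMRs, windows of 10 and 100 kb gave 2 and 4 of the 10 genes, beside 18.8% and 56.6% of all entries. Counts limit Hmox1, Cybrd1 and Hamp2 most.

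Replicate numbers were shared by the groups, but the labels do not say that they pair mice. Of 15 same-numbered pairs, 5 had deviations correlated above 0.1, and 6 of 15 libraries were closest to one of their own number. The median correlation was -0.0561 for same-numbered pairs and 0.0194 for the other pairs between groups, so same-numbered mice were not more alike by this median. With the replicate block, 252, 537 and 346 genes were called in the 3 comparisons, and Tfrc was still called.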
